A study of Mus musculus with 20 samples.

Results

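The genes described here are targets of YAP and TAZ, the transcriptional coactivators at the end of the Hippo pathway. They are Ccn1, Ccn2, Ankrd1, Amotl2, Crim1, Axl, Nuak2, Ptpn14, Gadd45b and Tgfb2, named from knowledge of the pathway. The choice was made with earlier results of these data known, so counts of these genes set beside all genes are a description only. Of these 10 genes, 8 have a probe set with that single gene symbol on the array, and they have 13 such probe sets between them, among 17097 genes in all. Axl and Nuak2 have none with that symbol alone in the annotation used and are not analysed here. All 8 passed the filter on low signal that left 12944 genes for testing.

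Transcripts were measured on 20 Affymetrix mouse arrays in SV40-immortalized mouse embryonic fibroblasts. The cells of every group, controls included, carried knockouts of both genes for the catalytic subunit of AMPK, the kinase that senses low cellular energy through AMP (Ampkα1/α2 double knockout). AICAR, an adenosine analog that enters cells, becomes an AMP mimic and is widely used to activate AMPK, was given at 1 mM for 1, 2, 4, 12 or 24 h (3 arrays each) or 8 h (2 arrays). Controls without AICAR were taken at 0 h (3 arrays). Hours in AICAR and hours in culture cannot be told apart in this design, and no array of cells with AMPK was analysed here. Whether the cells were 1 clone and whether replicates were separate cultures is not stated in the labels. The p-values therefore cover only the spread between arrays, which may be technical. In these bulk samples, fewer cells expressing a gene and less RNA per cell cannot be told apart.

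YAP and TAZ do not bind DNA themselves. They enter the nucleus, bind the TEAD transcription factors and switch on genes for matrix proteins, growth and the cytoskeleton. The Hippo kinases MST1 and MST2 activate LATS1 and LATS2, which phosphorylate YAP and TAZ and keep them in the cytoplasm. In fibroblasts the activity of YAP and TAZ depends strongly on cell density, on the stiffness of the substrate and on tension in the actin cytoskeleton. AMPK is itself known to phosphorylate YAP and the junction protein AMOTL1, and both acts restrain YAP, but the cells measured here lack that kinase. Several targets act back on the pathway: AMOTL2 and PTPN14 bind YAP, and LATS2 is both a target and a kinase of it.

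TEAD factors bind the motif GGAATG, which reads CATTCC on the other strand. RefSeq promoter sequences (build GRCm38.p6) were found for 8 of the 10 genes, all but Ccn2 and Nuak2, and the 250 bases before the annotated start were searched on both strands. The motif was present in 6 of the 8, against 12.6% of 32841 mouse promoters of the same length. The genes were named as known YAP and TAZ targets, so this comparison describes that choice and is no result of these arrays. The signal of Axl, which is among the 6, was not analysed here. The genes with a match were Ccn1, Ankrd1, Amotl2, Crim1, Axl and Ptpn14, and Gadd45b and Tgfb2 had none. The match began 103 bases before the start in Ccn1, 210 and 123 in Ankrd1, 65 in Amotl2, 79 in Crim1, 146 in Ptpn14 and 233 in Axl. The CArG box, which serum response factor binds, was found in 0 of the 8 windows, against 1.47% of all promoters. A match is only a run of letters and shows no binding. The windows are chr3:145649986-145650235 (minus strand) for Ccn1, chr19:36119845-36120094 (minus strand) for Ankrd1, chr9:102717554-102717803 (plus strand) for Amotl2, chr17:78199998-78200247 (plus strand) for Crim1, chr1:189728018-189728267 (plus strand) for Ptpn14 and chr10:80929841-80930090 (plus strand) for Gadd45b. They are printed 5′ to 3′ because their genes took different courses in AICAR although all but that of Gadd45b hold the motif, which is in capitals.
Ccn1: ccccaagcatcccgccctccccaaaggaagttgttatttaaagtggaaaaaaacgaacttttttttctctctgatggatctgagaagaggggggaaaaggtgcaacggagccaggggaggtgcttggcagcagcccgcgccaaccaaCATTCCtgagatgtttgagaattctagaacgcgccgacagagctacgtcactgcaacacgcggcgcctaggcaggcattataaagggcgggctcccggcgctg
Ankrd1: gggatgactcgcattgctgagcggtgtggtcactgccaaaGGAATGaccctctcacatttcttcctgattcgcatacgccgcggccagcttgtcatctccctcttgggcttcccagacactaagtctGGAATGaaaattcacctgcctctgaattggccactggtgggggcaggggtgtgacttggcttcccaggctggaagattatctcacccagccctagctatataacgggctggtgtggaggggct
Amotl2: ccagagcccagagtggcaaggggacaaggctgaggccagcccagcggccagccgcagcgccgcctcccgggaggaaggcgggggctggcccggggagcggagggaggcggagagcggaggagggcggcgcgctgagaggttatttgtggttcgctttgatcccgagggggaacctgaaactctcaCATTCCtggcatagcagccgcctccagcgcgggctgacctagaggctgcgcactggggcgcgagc
Crim1: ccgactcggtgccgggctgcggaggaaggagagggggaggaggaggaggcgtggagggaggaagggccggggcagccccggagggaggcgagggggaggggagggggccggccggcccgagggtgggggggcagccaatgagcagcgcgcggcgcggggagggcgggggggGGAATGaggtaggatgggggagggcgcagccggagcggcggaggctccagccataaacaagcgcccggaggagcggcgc
Ptpn14: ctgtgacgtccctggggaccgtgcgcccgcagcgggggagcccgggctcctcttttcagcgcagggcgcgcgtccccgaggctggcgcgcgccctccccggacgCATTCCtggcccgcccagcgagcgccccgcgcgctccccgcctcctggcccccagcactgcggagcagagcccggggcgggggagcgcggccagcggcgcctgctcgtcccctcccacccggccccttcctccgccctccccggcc
Gadd45b: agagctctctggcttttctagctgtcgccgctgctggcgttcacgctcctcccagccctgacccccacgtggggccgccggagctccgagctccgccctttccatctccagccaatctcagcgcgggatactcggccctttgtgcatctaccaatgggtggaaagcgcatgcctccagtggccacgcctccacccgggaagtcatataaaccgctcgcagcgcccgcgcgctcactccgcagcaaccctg

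Values are log2 signals as deposited, and each difference is the mean at a time in AICAR minus the mean at 0 h. A gene is said to fall only where its limma adjusted p over all 12944 genes was under 0.05. Where arrays of a gene are said to lie below others, this describes that gene alone unless the share of all genes is given. Array medians lay between 5.16 and 5.32, and the non-specific control probe sets had a 95th percentile of 5.08, used here as the background level. In 8 arrays the middle part of the signal range was narrower than in the other 12 (interquartile range 2.77 to 2.95, against higher values of up to 3.24). They are replicate 3 of the control and of 1, 2, 4, 12 and 24 h, and replicate 2 of 4 h and 8 h. Of 8 fibroblast markers, 6 had a highest group mean above background, with Vim and Fn1 far above it, but Col1a2 and Thy1 lay below it in every group. Among markers of other cell types the same was so for 2 of 6 macrophage markers (Csf1r and Cd68), 4 of 6 epithelial markers (Krt19, with group means of 9.54 to 10.14, and Epcam, Krt18 and Cldn4), 1 of 5 endothelial markers (Kdr), 5 of 6 muscle markers (Tnnt2, Des, Acta1, Myod1 and Myog) and 1 of 3 adipocyte markers (Pparg). Ptprc, Adgre1, Cdh1, Pecam1 and Cdh5 stayed below it.

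Of the 8 genes, 6 fell at 24 h, and 0 rose at any time by the limma test. Ccn2, Gadd45b, Crim1, Amotl2, Ankrd1 and Ccn1 differed at 24 h by -1.77 to -0.67 on the log2 scale, and Ptpn14 and Tgfb2 did not pass the test. At an unadjusted p under 0.05 the number higher was 1 at 8 h, Tgfb2, and 0 at the other times. After 1 h, 2 of the 8 had fallen, against 0.471% of all genes tested. The count was 2 at 2 h (0.997% of all genes) and 3 at 4 h (6.9%), then 4 at 8 h (2.84%) and 5 at 12 h (8.88%), and 6 after 24 h (14.6%). The median difference of the 8 genes was -0.18 at 1 h and -0.14 at 2 h, then -0.20 at 4 h and -0.36 at 8 h, and lastly -0.53 at 12 h and -0.94 at 24 h, whereas the median of all genes stayed between -0.01 and 0.01. Across the 6 times together the limma F test was passed by 6 of the 8 genes, and by 48.4% of all genes. The times at which the 6 genes passed differed, and their order was not tested. Gadd45b passed from 1 h on, Ankrd1 from 2 h on, Amotl2 at 1 h and from 8 h on, and Crim1 from 8 h on. Ccn2 passed at 4, 12 and 24 h, with the larger falls at 12 and 24 h. Ccn1 passed at 24 h, and its second probe set also at 12 h. Some of these times depended on the probe set or the setting, as given below.

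**Figure D1:**
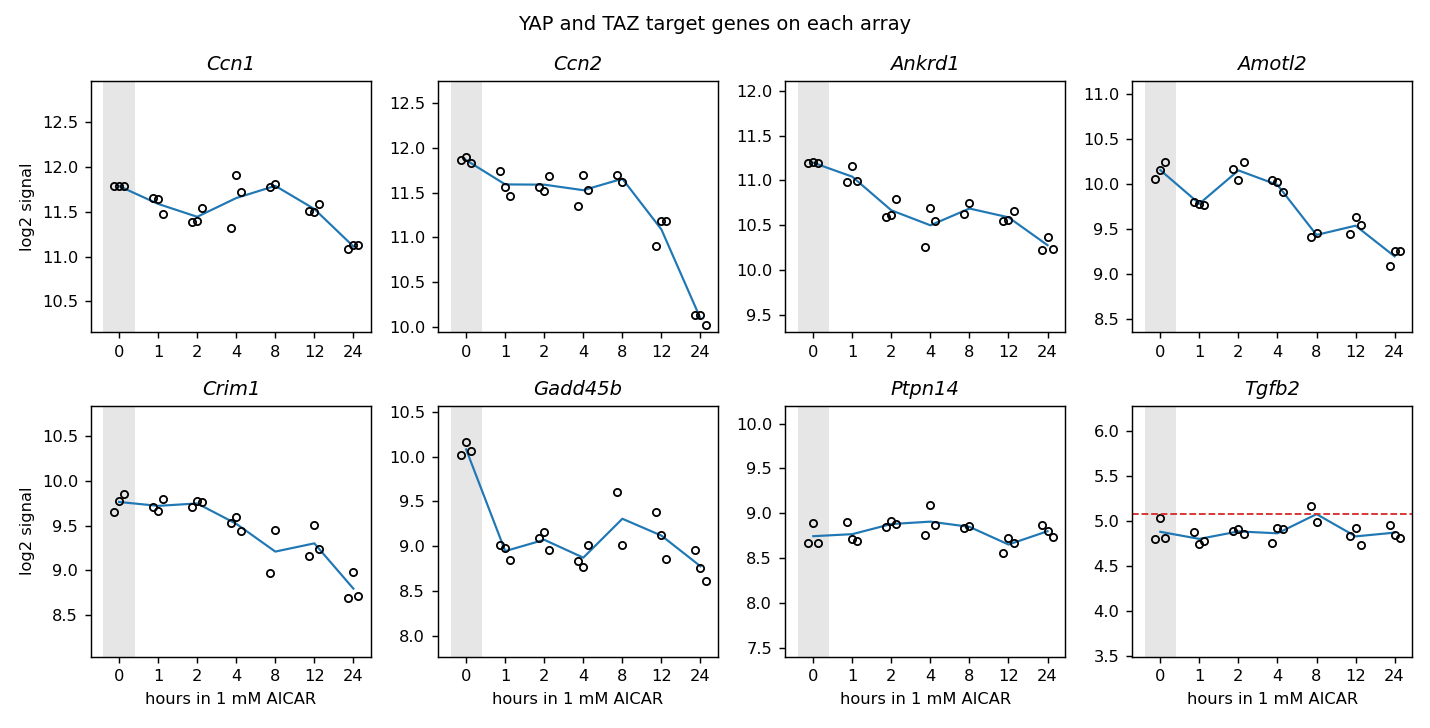
Log2 signal of the 8 YAP and TAZ target genes on each array (points) against hours in AICAR, with the 0 h control at the left and times evenly spaced; the line joins group means, the grey strip marks the 3 control arrays and the dashed red line marks the background level of 5.08. At 24 h the group means of Ccn1, Ccn2, Ankrd1, Amotl2, Crim1 and Gadd45b lie below the control means. These 6 falls passed the limma test, as did falls in 14.6% of all genes, and Tgfb2 stays near the background level.

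Ccn1 and Ccn2 encode CYR61 and CTGF, secreted proteins of the CCN family that bind integrins and the extracellular matrix and are the usual readouts of YAP and TAZ. Ccn2 gave log2 signals of 11.87, 11.90 and 11.82 in the controls, 11.74, 11.57 and 11.47 at 1 h, 11.56, 11.52 and 11.69 at 2 h, 11.35, 11.70 and 11.53 at 4 h, 11.69 and 11.61 at 8 h, 10.90, 11.18 and 11.19 at 12 h, and 10.13, 10.13 and 10.03 at 24 h. Every array in AICAR lay below every control array, narrowly up to 8 h and widely at 24 h. The difference was -0.27 ± 0.10 (SE) at both 1 h and 2 h and did not pass, and was -0.21 ± 0.11 at 8 h (adjusted p = 0.267). By contrast it was -0.77 ± 0.10 at 12 h (adjusted p = 1.96e-05) and -1.77 ± 0.10 at 24 h (adjusted p = 1.67e-10), a 3.40-fold fall. At 24 h Ccn2 ranked 21 among the falls of the 12944 genes. At 4 h its fall of 0.34 passed (adjusted p = 0.0279) but did not pass without AICAR 4h replicate 1, where it was 0.24, or without AICAR 4h replicate 3 or control replicates 1 or 2.

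Ccn1 gave 11.79, 11.79 and 11.78 in the controls, 11.65, 11.64 and 11.48 at 1 h, 11.39, 11.40 and 11.54 at 2 h, 11.32, 11.91 and 11.72 at 4 h, 11.77 and 11.80 at 8 h, 11.51, 11.49 and 11.59 at 12 h, and 11.08, 11.13 and 11.12 at 24 h. Its mean was 11.44 at 2 h, 11.79 at 8 h and lowest at 24 h. The 24 h arrays averaged 11.11 ± 0.03, against 11.79 ± 0.00 in the controls (SD, n = 3 each), a difference of -0.67 ± 0.10 (SE; adjusted p = 3.81e-05; 1.59-fold). The 2 h difference, -0.34 ± 0.10, did not pass (adjusted p = 0.130) although the arrays of 2 h and 0 h did not overlap, as in 8.39% of all genes on that side. The 4 h arrays were the most spread, and AICAR 4h replicate 2 lay above all controls. That array also had the highest actin 3′ to 5′ difference (0.689), a measure of RNA integrity from the array's own controls, which was 0.383 to 0.458 on the 0 h arrays. Without the 8 narrow arrays, a set left out after the data were seen, Ccn1 passed at 2 h (-0.39) and 12 h (-0.28). At 4 h that leaves only replicate 1, the lowest of the 3 arrays, which differed by -0.47 and passed (adjusted p = 0.0023) with the spread taken from other groups. When the interquartile range was added to the fit as a covariate, the 4 h difference was -0.18 and did not pass (adjusted p = 0.229). At 8 h, where Ccn1 differed by 0.00 with a 95% interval of -0.24 to 0.25, Amotl2 and Crim1 were already lower.

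Ankrd1 encodes CARP, an ankyrin-repeat protein that works in the nucleus as a transcriptional cofactor and at the titin filament in muscle. It gave 11.19, 11.20 and 11.19 in the controls, 10.98, 11.16 and 10.99 at 1 h, 10.60, 10.61 and 10.79 at 2 h, 10.26, 10.69 and 10.55 at 4 h, 10.63 and 10.75 at 8 h, 10.55, 10.56 and 10.66 at 12 h, and 10.23, 10.37 and 10.24 at 24 h. From 2 h onward every array lay below every array of 0 h and 1 h, and the lowest group mean was at 24 h. The fall was 0.53 ± 0.09 (SE) at 2 h (adjusted p = 0.00584) and 0.70 at 4 h, then 0.51 at 8 h and 0.61 at 12 h, and 0.92 ± 0.09 after 24 h (adjusted p = 3.79e-07; 1.89-fold). Leaving out an 8 h array leaves 1 at that time, whose spread is then taken from other groups. Without AICAR 8h replicate 1 the difference was still -0.45 but did not pass on the single array.

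Amotl2, the gene of an angiomotin-family protein that holds YAP at cell junctions and in the cytoplasm, gave 10.06, 10.16 and 10.24 in the controls, 9.80, 9.78 and 9.77 at 1 h, 10.17, 10.04 and 10.25 at 2 h, 10.04, 10.02 and 9.91 at 4 h, 9.41 and 9.46 at 8 h, 9.44, 9.63 and 9.54 at 12 h, and 9.08, 9.25 and 9.25 at 24 h. The arrays from 8 h on all lay below those of 1, 2 and 4 h. Its fall was 0.72 ± 0.08 (SE) at 8 h (adjusted p = 9.59e-05), 0.62 at 12 h and 0.96 ± 0.07 at 24 h (adjusted p = 1.74e-08; 1.95-fold). A smaller fall at 1 h, 0.37 ± 0.07 (adjusted p = 0.0241), was not there at 2 h, when the difference was 0.00 ± 0.07. The 1 h call did not pass without control replicate 2 or 3, without any of the 3 arrays of 1 h or without the narrow arrays.

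Ptpn14 encodes a tyrosine phosphatase that binds YAP and keeps it out of the nucleus. Its 95% interval at 24 h was -0.13 to 0.24 around a difference of 0.06. It gave 8.67, 8.89 and 8.67 in the controls, 8.90, 8.72 and 8.69 at 1 h, 8.85, 8.91 and 8.88 at 2 h, 8.76, 9.09 and 8.87 at 4 h, 8.84 and 8.86 at 8 h, 8.56, 8.73 and 8.67 at 12 h, and 8.86, 8.80 and 8.74 at 24 h. Its arrays overlapped those of the controls at all 6 times, and its differences lay between -0.09 and 0.16 with adjusted p of 0.279 or more. The motif in its promoter window was thus found in a gene whose signal did not pass, and also in Ccn1, Ankrd1, Amotl2 and Crim1, which fell.

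Crim1 is a transmembrane protein gene whose product binds bone morphogenetic proteins and tethers them at the cell surface. Its signal was 9.66, 9.78 and 9.86 in the controls, 9.71, 9.66 and 9.79 at 1 h, 9.70, 9.78 and 9.76 at 2 h, 9.53, 9.60 and 9.44 at 4 h, 8.97 and 9.45 at 8 h, 9.16, 9.50 and 9.24 at 12 h, and 8.69, 8.99 and 8.72 at 24 h. The 1 h and 2 h arrays overlapped the controls, and all later arrays lay below them. Its differences were -0.55 ± 0.13 (SE) at 8 h (adjusted p = 0.00897), -0.46 ± 0.11 at 12 h (adjusted p = 0.00564) and -0.97 ± 0.11 at 24 h (adjusted p = 1.80e-06; 1.95-fold). The 8 h arrays differed from each other, and without AICAR 8h replicate 1 the difference on the single array left was -0.32 and did not pass. Tgfb2, a secreted growth factor of the TGF-beta family, gave 4.73 to 5.16 over all 20 arrays, with only AICAR 8h replicate 1 above the background level. Its differences lay between -0.08 and 0.20 and did not pass, and at a control signal this near background a fall in its transcript was not detectable.

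Gadd45b encodes a stress-response protein that binds MAP kinase kinases and cell cycle regulators. It gave 10.01, 10.16 and 10.06 in the controls, 9.01, 8.98 and 8.85 at 1 h, 9.09, 9.16 and 8.96 at 2 h, 8.84, 8.76 and 9.02 at 4 h, 9.60 and 9.01 at 8 h, 9.38, 9.12 and 8.85 at 12 h, and 8.96, 8.75 and 8.61 at 24 h. Every array in AICAR lay below every control array, and the 1 h arrays overlapped those of 24 h. At 1 h it fell by 1.13 ± 0.14 (SE; adjusted p = 0.00144), a 2.19-fold fall that ranked 6 among the 12944 genes. The fall was 1.01 at 2 h and 1.21 at 4 h, then 0.77 at 8 h and 0.96 at 12 h, and 1.30 ± 0.14 after 24 h (adjusted p = 7.54e-07; 2.47-fold). On the single array left without AICAR 8h replicate 2, the 8 h value was -0.48 and did not pass.

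**Figure D2:**
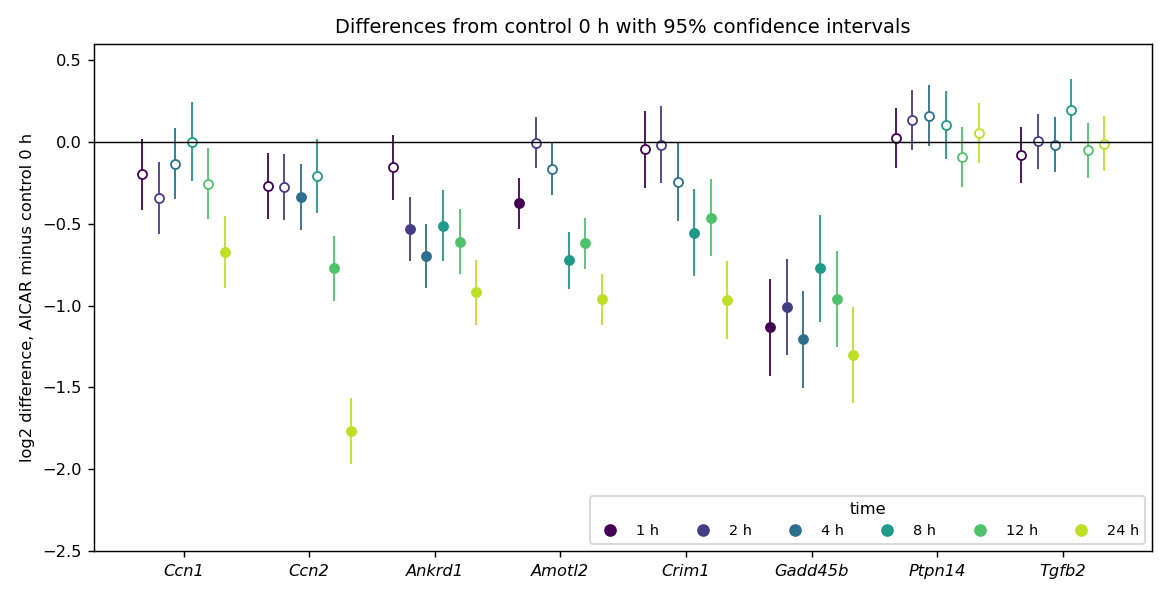
Difference in log2 signal between each time in AICAR and the 0 h control for the 8 genes, with 95% confidence intervals from the limma fit; colours mark the 6 times from 1 to 24 h, filled points passed at an adjusted p under 0.05 and open points did not. Gadd45b is already -1.13 at 1 h, Ankrd1 passes from 2 h on, Amotl2 and Crim1 from 8 h on (Amotl2 also at 1 h), and Ccn2 reaches -1.77 at 24 h.

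The late times (8, 12 and 24 h) were set against the early ones (1, 2 and 4 h) to ask whether signals changed in the course of exposure, which here is also time in culture. The late mean was lower for 4 of the 8 genes and higher for 0 by the limma test (the same counts at an unadjusted p under 0.05), and over all genes 14.2% were lower. Ccn2 differed by -0.62 ± 0.06 (SE; adjusted p = 1.24e-07), Amotl2 by -0.59 ± 0.04 (adjusted p = 1.36e-08), Crim1 by -0.56 ± 0.07 (adjusted p = 2.45e-06) and Ankrd1 by -0.22 ± 0.06 (adjusted p = 0.00378). In Amotl2 the late and early arrays did not overlap, which was so for 1.38% of all genes on the lower side. Ccn1 (-0.08) and Gadd45b (0.10) did not pass. For Gadd45b, lower from 1 h on, the 95% interval of the late minus early difference was -0.07 to 0.28, and the value depended on the setting. It was 0.25 (adjusted p = 0.0100) without the narrow arrays, which leaves 1 array each at 4 h and 8 h, and -0.01 (adjusted p = 0.881) with the interquartile range as a covariate.

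Beside these changes, the actin 3′ to 5′ difference was 0.503 to 0.557 on the 24 h arrays, above that of the controls. The Gapdh 3′ to 5′ difference, by contrast, was 0.125 to 0.154 on the 24 h arrays, inside the 0.0766 to 0.228 of the controls. Over the 20 arrays, deviations from group means correlated with those of the actin difference at 0.79 for Ankrd1, 0.68 for Ccn1 and -0.53 for Gadd45b. The other genes gave -0.09 to 0.48. With the interquartile range the correlation was 0.74 for Gadd45b, -0.52 for Ankrd1 and -0.44 to 0.44 for the others. These correlations carry no test. Of the 7 fibroblast markers tested, 0 rose and 3 fell at 24 h by the limma test (0 and 4 at an unadjusted p under 0.05), when 14.6% of all genes fell. They were Fn1 (-0.30), Pdgfrb (-0.25) and Thy1 (-0.22). The summed log2 signal of all 8 was 60.3 to 61.5, against 61.5 to 62.0 in the controls. Of the 6 macrophage markers, Cd68, below background at 0 h, rose by 1.08, Csf1r, above background in every group, differed by -0.21 and did not pass, and Ptprc, Adgre1, Lyz2 and Itgam stayed below background. The summed signal at 24 h was 28.0 to 28.9 for those 6 markers, against 27.3 to 27.7 in the controls. It was 35.4 to 35.5 for 6 epithelial markers, against 35.1 to 35.7, and 35.6 to 36.3 for 6 muscle markers, against 36.5 to 37.0. It was 23.2 to 23.9 for 5 endothelial markers, against 23.7 to 24.2, and 13.7 to 14.3 for 3 adipocyte markers, against 14.0 to 14.3 in the controls. The part of RNA quality or of cell makeup in the falls was not tested. Without the 8 narrow arrays, 6 of the 8 genes still fell at 24 h.

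Other probe sets of the same gene were examined to see whether the falls depended on which probe set stood for the gene. Over the 28707 probe sets tested one by one, 2 of the 13 passed at 1 h, lower as at all times, against 0.275% of all probe sets on that side. The count was 3 at 2 h (0.529%) and 4 at 4 h (4.53%), then 5 at 8 h (2.5%) and 7 at 12 h (7.84%), and 9 after 24 h (13.8%). The second Ccn1 probe set fell by 0.78 at 24 h (adjusted p = 4.89e-05), and at 12 h by 0.35 (adjusted p = 0.0475). The second Ankrd1 probe set fell by 0.50 at 2 h and 0.91 at 24 h. Both pairs rose and fell together over the 20 arrays, with a Pearson correlation of 0.962 for Ccn1 and 0.956 for Ankrd1, given as a description. The second Crim1 probe set was far more spread. It gave 8.92, 9.18 and 9.61 in the controls, 9.37, 7.45 and 7.86 at 4 h, 9.11 and 7.59 at 8 h, and 7.79, 7.13 and 6.73 at 24 h, and it passed at 24 h alone (-2.02 ± 0.54; SE; adjusted p = 0.00784). With the mean of both Crim1 probe sets, the 24 h difference was -1.49, and the 8 h and 12 h differences (-0.72 and -0.60) did not pass. The 3 Ptpn14 probe sets did not pass at any time.

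**Figure D3:**
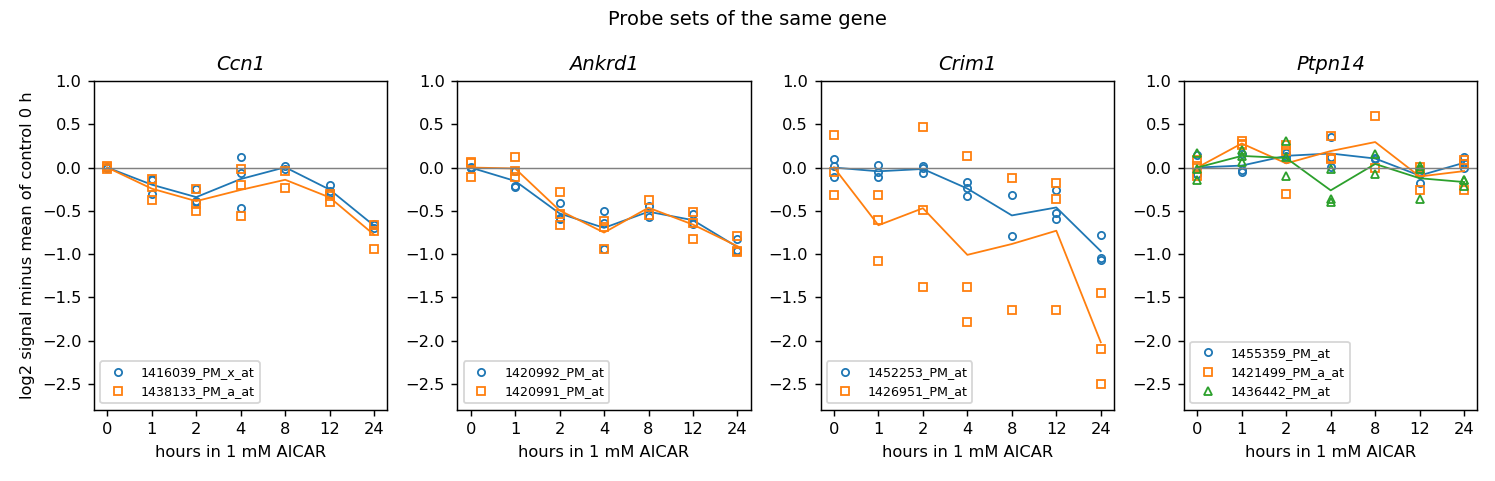
Log2 signal of every probe set of Ccn1, Ankrd1, Crim1 and Ptpn14 on each array, minus that probe set's mean in the 0 h controls, against hours in AICAR with times evenly spaced; each marker style is 1 probe set and lines join group means. The probe sets of Ccn1 and of Ankrd1 move together, whereas the second Crim1 probe set spreads widely within single groups.

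The other genes of the pathway were taken from lists, which include 13 further YAP and TAZ targets, 19 Hippo kinases and adaptors, 9 genes for YAP, TAZ, the TEAD factors and their cofactors, 14 paralogs of the 10 named genes (Axl and Nuak2 included) and 12 targets of serum response factor and its cofactor MRTF. The last group responds to actin, as YAP and TAZ do. Among the 13 further targets, 0 rose and 7 fell at 24 h by the limma test (0 and 7 at an unadjusted p under 0.05), with a median difference of -0.28. At 1, 2, 4, 8 and 12 h, 0, 1, 2, 3 and 5 of them fell, and 1, Igfbp3, rose at 12 h (0.43, adjusted p = 0.0104), when 14.8% of all genes did. The Igfbp3 arrays of 12 h overlapped those of the controls. Its rise did not pass without control replicate 3, without AICAR 12h replicate 2 or with the compared groups alone. Of all genes, 0.471%, 0.997%, 6.9%, 2.84% and 8.88% fell at these 5 times and 14.6% at 24 h. F3, which encodes tissue factor and starts blood clotting, fell by 0.64 ± 0.10 at 24 h (SE; adjusted p = 3.17e-05), and by 0.47 at 2 h. The 2 h value did not pass without control replicate 1 or 2, without AICAR 2h replicate 1 or 3, or with the compared groups alone. Rbms3, an RNA-binding protein gene, fell by 0.52, Fjx1 by 0.43 and Myof, a membrane-repair protein gene, by 0.36. Lats2 fell by 0.56 and Arhgef17 by 0.28. Igfbp3 fell by 0.35 at 24 h but lay below background at both 24 h and 0 h, and Nt5e, Dock5, Foxf2, Asap1, Gadd45a and Ccdc80 did not pass at 24 h, with differences between -0.14 and 0.21. Gadd45a fell at 4, 8 and 12 h, by 0.85 at 12 h, though the 8 h value did not pass on either single 8 h array (adjusted p = 0.106 and 0.0580).

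Transcripts of the coactivators themselves were measured to show whether the targets fell with them. Yap1 averaged 10.14 at 24 h, against 10.23 at 0 h (difference -0.08 ± 0.07; SE; adjusted p = 0.423). Wwtr1, which encodes TAZ, averaged 10.37 at 24 h, against 10.36 at 0 h (difference 0.00 ± 0.07; adjusted p = 0.979). Of the 9 genes, 4 fell at 24 h, when 14.6% of all genes did. These were the TEAD gene Tead1 (-0.42), Tead2 (-0.32), and the TEAD cofactor genes Vgll3 (-0.29) and Vgll4 (-0.64). Tead1, Tead2 and Vgll4 did not pass without some single arrays, and Vgll4 was -0.33 without control replicate 3. Of the 9, only 1 fell without AICAR 24h replicate 2 and only 1 without replicate 3. By the limma test 0 passed at the earlier times, against 0, 1, 2, 1 and 2 lower at an unadjusted p under 0.05 at 1, 2, 4, 8 and 12 h. Late minus early, 2 of the 9 were lower, Wwtr1 (-0.13) and Tead1 (-0.22), when 14.2% of all genes were. In the same comparison 1 was higher, Tead4 (0.22). With median centring neither Wwtr1 nor Tead1 passed. The transcript level says nothing of the phosphorylation or location of YAP and TAZ, which were not measured.

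Hippo kinases and adaptors moved both ways, with 4 higher and 7 lower of 19 at 24 h, when 25.8% of all genes were higher and 14.6% lower. The kinase gene Lats1 gave 10.40, 10.37 and 10.25 at 24 h, against 9.68, 9.69 and 9.67 at 0 h, higher by 0.66 ± 0.07 (SE; adjusted p = 9.92e-07), and it was higher by 0.43 at 4 h already, when 3 of the 19 and 5.18% of all genes were higher. As an average of all its probe sets, Lats1 was higher by 1.06 at 24 h and 0.84 at 4 h, and without the narrow arrays by 0.27 at 4 h. Mob1a, the gene of a LATS activator, rose by 0.54 (0.34 averaged over its probe sets) and Sav1, a scaffold of the MST kinases, by 0.51. Lats2, itself a YAP and TAZ target, gave 7.78, 7.82 and 7.35 at 24 h, against 8.20, 8.14 and 8.29 at 0 h. It was thus lower by 0.56 ± 0.14 (adjusted p = 0.00391), though by 0.30 as an average of all its probe sets and by 0.37 without the narrow arrays. Frmd6, an upstream FERM-domain adaptor gene, gave 9.03, 8.75 and 8.66 at 24 h, against 9.58, 9.67 and 9.68 at 0 h, lower by 0.83 ± 0.13. The LIM-domain gene Ajuba (-0.51), Amot (-0.41), Wwc2 (-0.38), Map4k4 (-0.38) and Nf2 (-0.24) also fell. At 24 h Lats1 was thus higher and Lats2 lower, by either choice of probe set. Before that, the course of Lats2 depended on the choice. As an average of all its probe sets Lats2 differed by 0.34 at 8 h and -0.05 at 12 h, and neither passed. The probe set that stood for the gene gave -0.62 and -0.61 at those times.

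**Figure D4:**
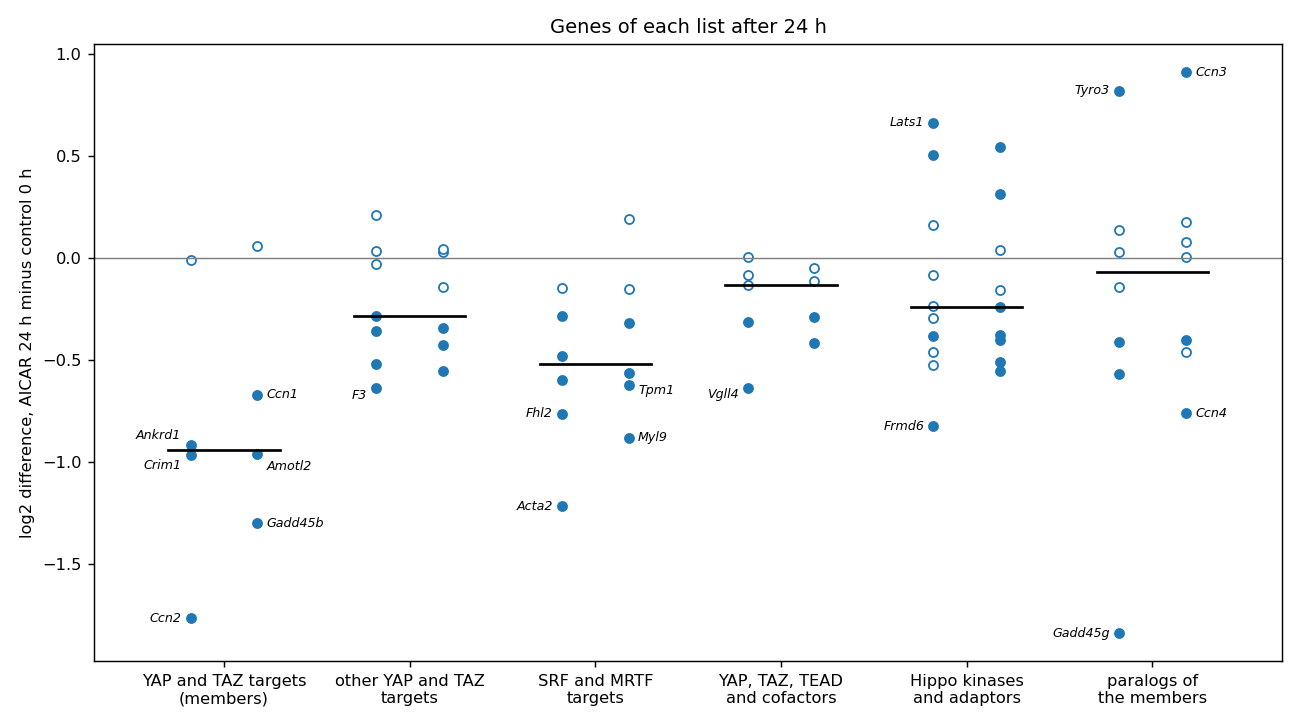
Difference in log2 signal between 24 h in AICAR and the 0 h control for each tested gene of the 6 lists; filled points passed at an adjusted p under 0.05, open points did not, and the black bar is the median of the list. The 8 YAP and TAZ targets and the 12 serum response factor targets lie mostly below 0, with medians of -0.94 and -0.52, and the Hippo kinases and adaptors spread to both sides.

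Paralogs of the 10 named genes moved both ways, with 2 higher and 5 lower of 14 at 24 h, when 25.8% of all genes were higher and 14.6% lower. Gadd45g, a paralog of Gadd45b, gave 7.48, 7.63 and 6.98 at 24 h, against 9.27, 9.22 and 9.12 at 0 h, and fell by 1.84 ± 0.16 (SE; adjusted p = 7.27e-08). It was also lower at 1 h (-0.75; adjusted p = 0.0428) and 2 h (-1.13), although the 1 h value did not pass without some single arrays, and Gadd45a fell at 4 h (-0.63; adjusted p = 0.00546), 8 h (-0.67) and 12 h (-0.85; adjusted p = 0.000217) but at 24 h differed by -0.14 and did not pass. In the CCN family, Ccn4 fell by 0.76 while Ccn3 gave 7.73, 7.46 and 6.96 at 24 h, against 6.67, 6.48 and 6.27 at 0 h, and rose by 0.91 ± 0.20 (adjusted p = 0.00124). Ccn3 thus ran opposite to Ccn1, Ccn2 and Ccn4. Tyro3, a receptor kinase of the family of Axl, rose by 0.82 (0.43 averaged over its probe sets), and Mertk of the same family fell by 0.41. Amot fell by 0.41, and Nuak1, the paralog of Nuak2 in the family of AMPK-related kinases, by 0.57.

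Of the 12 serum response factor and MRTF targets, 9 fell and 0 rose at 24 h by the limma test (10 and 0 at an unadjusted p under 0.05), with a median of -0.52. At 1, 2, 4, 8 and 12 h, 0, 0, 2, 4 and 9 of them fell, against 0, 2, 7, 10 and 10 at an unadjusted p under 0.05, and 0 were higher by either count. Of all genes, 0.471%, 0.997%, 6.9%, 2.84% and 8.88% fell at those times and 14.6% at 24 h. Acta2, which encodes smooth muscle actin and marks contractile fibroblasts, gave 10.61, 10.53 and 10.60 at 24 h, against 11.81, 11.82 and 11.77 at 0 h. It fell by 1.22 ± 0.08 (SE; adjusted p = 1.02e-09), though by 0.69 as an average of all its probe sets. The myosin light chain gene Myl9 fell by 0.88, the LIM-domain gene Fhl2 by 0.76, the tropomyosin gene Tpm1 by 0.62, Zyx by 0.60 and Flna by 0.57. Srf itself differed by 0.19 at 24 h and did not pass (adjusted p = 0.126). At 4 h Srf was among the 2 that fell (-0.31, adjusted p = 0.0426), though its arrays overlapped those of the controls. As an average of all its probe sets the 4 h difference was -0.18 and did not pass.

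Among the 12944 genes, those whose 7 group means were most like the time course of Ccn2 were Ccdc86 (Pearson r = 0.997), Nol12 (0.997) and Lsg1 (0.995). Ccdc86 averaged 8.62 at 24 h, against 9.74 at 0 h, a difference of -1.12. For Ccn1 the closest were 1700016C15Rik (0.991), Podn (0.981) and Rassf7 (0.968), and for Ankrd1 they were Lipt2 (0.981), Kcnf1 (0.980) and Slc20a2 (0.979). These values describe 7 group means compared with every gene tested, and carry no test. Of the 8 genes themselves, the pair with the most similar time course was Amotl2 and Crim1 (r = 0.924 over the 7 group means), and that of Ccn1 and Ccn2 was 0.895.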

How the data were processed

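Per the labels' protocols, RNA of 20 samples in 7 groups was labelled as cRNA and put on Affymetrix MG-430 PM strips. The deposited values are log2 signals of 45141 probe sets. For the authors' background correction, probe summary and normalization, the sources used here give no method, so the values were kept as deposited. The number of arrays limits the precision. Signals of different probe sets were not set against each other.

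The 104 array controls were left out of the tests. The platform annotation lists 29449 of the probe sets, 28898 under 1 symbol and 551 under several, which were not named. Symbols of 28689 were updated through gene identifiers with a GRCm38.p6 gene table. The probe set with the highest mean stood for a gene, and a gene was tested if its highest group mean exceeded 4.81, the 40th percentile of the table. One limma 3.58.1 fit (lmFit and eBayes, R 4.3.3) of all 7 groups, with 13 residual degrees of freedom, gave every two-sided comparison, and p-values were adjusted by Benjamini-Hochberg over the 12944 genes.

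Alternatives were quantile normalization, median centring, other filters, other choices of probe set, a trended variance, array weights, the interquartile range or the replicate number as covariate, the compared groups alone and each array left out. After the data were seen, the narrow arrays and the 2 arrays with the highest medians were also left out. The fit was tested on simulated data. The genes and lists were chosen with earlier results of these data known. Genes named from the lists are the 4 that passed with the largest change, and others named beside them were chosen after their values were seen. Promoters are RefSeq's. Figures came from matplotlib 3.10.9 in Python 3.11.15.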

Additional observations from a re-analysis of the deposited data

Results flagged for a closer look

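Signals differed between late times in AICAR (8, 12 and 24 h) and early times (1, 2 and 4 h) in 4 of the 8 genes, by the limma test of the difference itself. With untreated cells at 0 h alone, hours in AICAR and hours in culture cannot be told apart. The late minus early difference was -0.62 for Ccn2, -0.22 for Ankrd1, -0.59 for Amotl2 and -0.56 for Crim1 on the log2 scale, all lower late. Groups of 3 arrays or fewer were not tested for single outlying arrays, but each array was left out in turn.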

How the results depend on the processing

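The counts of genes that fell at 12 and 24 h, late minus early and by the F test stayed within 1.5 times under every alternative run. At 1 h the count of 2 was 1 with quantile normalization and 1 without the narrow arrays, and at 2 h and 4 h it was 4 and 5 with array weights. Leaving out single arrays gave 1 to 2 genes at 1 h, 2 to 3 at 2 h, 2 to 3 at 4 h, 2 to 4 at 8 h, 5 to 6 at 12 h, 6 at 24 h and 4 to 5 late minus early. Of the members' probe sets, 1 passed at 1 h with quantile normalization, against 2. Amotl2 at 1 h was -0.34 with quantile normalization and did not pass, and Ccn1 passed at 12 h with the mean of its probe sets (-0.30; adjusted p = 0.0463). Lats2 reversed at 8 h, with 0.34 (not past the test) by the mean of its probe sets, against -0.62. The cause was not tested. Counts in the other lists also moved at early times, such as the serum response factor targets at 8 h, with 7 under quantile normalization, 9 under array weights and 9 under the replicate block, against 4. At 24 h the count for YAP, TAZ, TEAD and cofactors was 2 with median centring, against 4.

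Over all genes the counts moved by more than 1.5 times mainly at early times. At 1, 2 and 8 h they were 110, 353 and 2083 with quantile normalization and 153, 618 and 2418 with the interquartile range covariate, against 62, 190 and 1336. With array weights they were 421, 1338, 7476, 2371 and 4645 at 1, 2, 4, 8 and 12 h and 10636 by the F test. Median centring gave 781 at 8 h and the compared groups alone 194 at 1 h. Quantile normalization had 26 of 110 higher at 1 h, against 1 of 62, and median centring 337 of 1098 higher at 4 h, against 671 of 1564.

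Same-numbered arrays of different groups deviated together more often than others: the correlation of their deviations had a median of 0.325 and was over 0.1 in 39 of 57 pairs, against a median of -0.166 and 36 of 114 pairs with different numbers. Not every same-numbered pair did so (lowest -0.455), and 12 of 20 arrays correlated best with their own number, a hint from the data and not the design. The numbers were therefore not treated as pairs. The replicate block left the counts of genes that fell at 2, 2, 3, 4, 5 and 6 over the 6 times and changed no call of the 8 genes, while the counts over all genes were 107, 386 and 2428 at 1, 2 and 4 h. Control signals near background, as for Tgfb2, limit what falls can be detected.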
